A study of Mus musculus with 12 samples.

Results

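Band 3 and the blood group proteins are carried on the surface of the red cell, and their transcripts were followed here as 9 genes chosen by symbol as red cell surface proteins (Slc4a1, Gypc, Rhd, Rhag, Kel, Xk, Ermap, Icam4 and Aqp1) among 55367 symbols in the deposited tables. Each of the 9 occurred in 1 row. The cells were G1E-ER4, erythroid progenitors of the mouse grown as a line, which lack functional Gata1 and express a GATA1 and estrogen receptor fusion, which estradiol switches on. All 12 cultures received 100 nM β-estradiol for 24 h in medium with erythropoietin and Kit ligand. There were 3 libraries each of cells given 50 µM DTPA (a chelator used to lower zinc), 50 µM DFO (an iron chelator), 0.2 mM SA (used to inhibit ALAD, an enzyme of heme synthesis) and no agent (control). The protocol text names DFO for the ALAD arm, while titles and treatment tags say SA, which was followed. The model is 1 cell line kept in growth factors, not bone marrow, and the agents' effects on metal content were not measured in these files.

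Band 3, encoded by Slc4a1, exchanges chloride for bicarbonate and anchors the membrane to the spectrin skeleton through ankyrin. In human red cells it sits in a complex with Rh proteins, which need the Rh-associated glycoprotein (Rhag) to reach the surface, and with glycophorins. Glycophorin C (Gypc) is a second anchor, through protein 4.1. Kell (Kel) is a zinc-dependent endopeptidase that is joined by a disulfide bond to XK, which belongs to a family of lipid scramblases. Ermap carries the Scianna, Icam4 the Landsteiner-Wiener and Aqp1, a water channel, the Colton blood group antigens. The study's design addresses how maturing erythroid cells respond when zinc, iron or protoporphyrin is short.

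Values are TPM as deposited, which scale a gene's reads by its length and by the library's total, so levels of different genes can be compared. Differences between groups are given as ratios of mean TPM or on the scale of log2(TPM + 1), where changes of genes near 1 TPM come out too small. A gene was called where the adjusted p of limma was under 0.05 (Benjamini-Hochberg over all tested genes). The spacing of low values corresponded to between 19860127 and 24329335 reads per library, summed over the 53186 symbols with 1 annotated gene. Erythroid markers used to check the labelled cell type (6 genes, among them Hba-a1, Hbb-bt, Alas2, Epor and Tfrc) were all tested, with a summed level of 17277 to 26030 TPM with DTPA, 14423 to 15106 with DFO, 12874 to 15265 with SA and 17183 to 19162 in control. Megakaryocyte markers, of which 4 of 8 were tested, summed to 36.5 to 45.8 TPM with DTPA, 10.3 to 10.9 with DFO, 8.27 to 9.87 with SA and 8.23 to 9.34 in control, with Gp6 at 0 in every library. Progenitor markers (3 of 4 tested, Cd34 at 0) summed to 67.6 to 73.9 TPM with DTPA, 36.0 to 37.1 with DFO, 44.5 to 46.7 with SA and 31.6 to 34.6 in control. Mast and myeloid markers (1 of 8 tested) summed to 2.60 to 3.54 TPM with DTPA and to at most 1.03 TPM in the other groups, with Mpo and Mcpt8 at 0 throughout. Lymphoid markers (1 of 6 tested) summed to 1.37 to 2.04 TPM with DTPA, 0.369 to 0.777 with DFO, 0.525 to 0.915 with SA and 0.361 to 0.757 in control. These 4 lists were highest in the DTPA libraries without overlap, beside all DTPA results that follow, and their part in those results was not tested. Endothelial markers (0 of 6 tested) summed to at most 0.318 TPM in any library, with Cdh5 and Emcn at 0 throughout.

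In these bulk samples, fewer cells that express a gene and less RNA per cell cannot be told apart. Per the labels the 3 libraries of a group are biological replicates. All p-values rest on the spread within groups, which the main fit estimated jointly from all 12 libraries. Each comparison in that fit thus also rests on the spread in groups outside it.

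The promoters of the 2 partner pairs are shown because the partners in each pair (Rhd with Rhag, and Kel with Xk) had unlike fold changes with DTPA. Each sequence is the 250 bases before the RefSeq start on GRCm38.p6, printed along the gene's strand, with motif matches on either strand in capitals. The GATA motif was read as AGATAA or AGATAG, each also with T in place of the first A. The motif of KLF factors was CCACCC, and the core of the metal response element, which MTF1 binds, was TGCACNC, also with G in place of the A. The window of Rhd is chr4:134864286-134864535 (plus strand), that of Rhag chr17:40810899-40811148 (plus), that of Kel chr6:41704326-41704575 (minus) and that of Xk chrX:9272534-9272783 (plus).
Rhd: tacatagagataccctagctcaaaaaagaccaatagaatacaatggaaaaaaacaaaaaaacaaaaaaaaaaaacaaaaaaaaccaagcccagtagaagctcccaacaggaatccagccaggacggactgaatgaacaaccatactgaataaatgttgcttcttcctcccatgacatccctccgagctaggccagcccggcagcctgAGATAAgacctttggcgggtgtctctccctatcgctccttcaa
Rhag: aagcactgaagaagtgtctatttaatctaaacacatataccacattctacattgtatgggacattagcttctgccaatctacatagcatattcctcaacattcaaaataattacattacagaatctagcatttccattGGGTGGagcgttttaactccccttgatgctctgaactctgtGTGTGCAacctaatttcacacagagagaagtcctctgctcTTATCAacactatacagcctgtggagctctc
Kel: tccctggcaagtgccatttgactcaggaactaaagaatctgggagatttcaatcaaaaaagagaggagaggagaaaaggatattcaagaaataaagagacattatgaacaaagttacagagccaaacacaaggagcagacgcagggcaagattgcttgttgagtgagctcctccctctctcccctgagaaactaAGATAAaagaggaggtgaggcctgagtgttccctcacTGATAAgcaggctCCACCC
Xk: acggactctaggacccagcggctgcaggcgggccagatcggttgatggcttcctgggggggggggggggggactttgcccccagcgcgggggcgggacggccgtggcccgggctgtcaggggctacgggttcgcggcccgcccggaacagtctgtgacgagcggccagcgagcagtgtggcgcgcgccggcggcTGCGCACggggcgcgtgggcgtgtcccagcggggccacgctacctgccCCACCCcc

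Counted from the start, Rhd had 1 GATA match, at -43. Rhag had a GATA match at -31, a metal response core at -71 and a KLF match at -112. Kel had 2 GATA matches, at -56 and -19, and a KLF match at -6, while Xk had a KLF match at -8, a metal response core at -56 and no GATA match. Of the 7 members with a window in the RefSeq table, 5 held a GATA match, 5 a KLF match and 2 a metal response core. Among all 32851 windows of the same length the shares were 26.5%, 28.1% and 21.4%. No match overlapped another in the 4 printed windows, and a match describes letters only.

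Aqp1 was listed at 0 in all 12 libraries and could not be tested. Its 2627 exonic bases gave no read in any library, which allows a level of up to 0.141 to 0.183 TPM at 3 reads, for counting error only. None of 10 housekeeping genes checked was listed at 0. The water channel that belongs to the Gill blood group, Aqp3, was present at low level (6.24 ± 1.03 TPM with DTPA, 2.26 ± 0.844 with DFO, 1.55 ± 0.420 with SA and 2.16 ± 0.467 in control). The other 8 members had at least 1 TPM in at least 3 libraries and entered the test with 11917 genes in all.

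With DTPA the order of levels was Ermap, Gypc, Icam4, Xk, Slc4a1, Kel, Rhag and Rhd, with means of 345, 224, 189, 67.1, 45.5, 30.7, 27.4 and 0.947 TPM. Kel and Rhag lay close there without overlap, the lowest Kel library at 29.1 TPM and the highest Rhag library at 28.9 TPM. With DFO and with SA, Gypc came first, then Ermap, Slc4a1, Icam4, Xk, Rhag, Rhd and Kel, and with SA the ranges of Rhag and Rhd overlapped. In control the order was Slc4a1, Gypc, Ermap, Icam4, Xk, Rhag, Rhd and Kel, with means of 718, 580.0, 522, 149.7, 50.5, 34.8, 23.7 and 11.1 TPM. No 2 neighbours in the control order overlapped. Band 3 thus stood in place 5 with DTPA and in place 1 in control, and Kel in place 6 with DTPA and in place 8 in control.

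The sum of the 9 genes was 923 to 937 TPM with DTPA, 1867 to 1893 TPM with DFO, 2005 to 2016 TPM with SA and 2021 to 2134 TPM in control. Band 3 made up 4.89% ± 0.322 of that sum with DTPA, 24.6% ± 0.532 with DFO, 25.9% ± 0.127 with SA and 34.3% ± 0.646 in control (SD, n = 3 each).

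**Figure D1:**
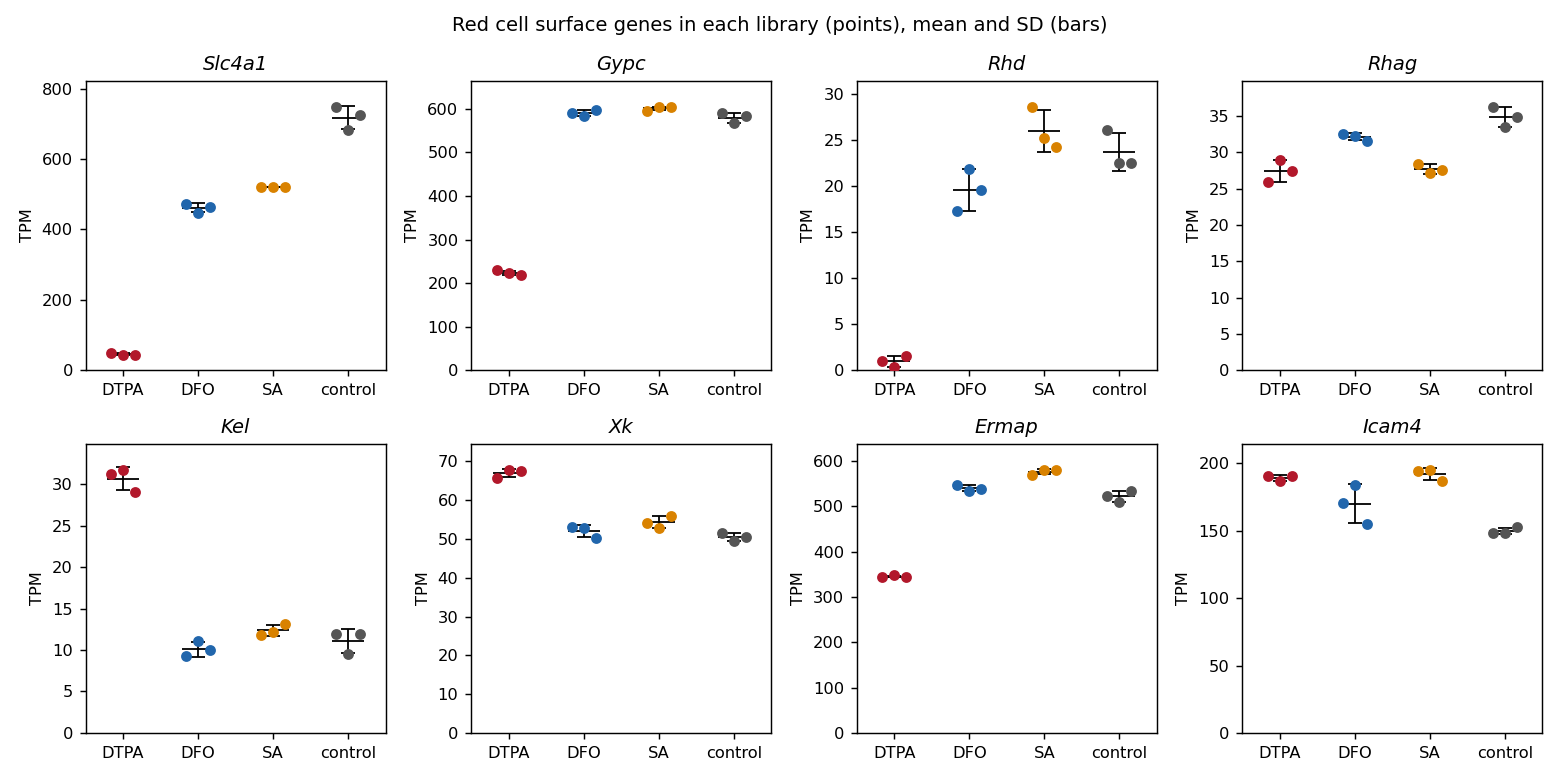
TPM of the 8 tested members in each library (points), with group mean and SD as black bars, for DTPA, DFO, SA and control from left to right; each axis starts at 0 and has its own scale. Slc4a1, Gypc, Ermap and Rhd were lowest with DTPA and Kel and Xk were highest with DTPA.

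All 8 tested members differed between DTPA and control, 5 lower and 3 higher. This has to be read against a background in which 65.5% of all tested genes were called, 42.1% lower and 23.5% higher. The DTPA and control libraries of all 8 did not overlap, as was so for 69.6% of tested genes. The direction of each member was the same under both other scalings tried, which raised the median difference of all genes by 0.115 (median of ratios) and 0.118 (trimmed mean) and gave 3842 higher against 3858 lower, or 3881 against 3823, where the deposited values gave 2796 against 5014.

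Slc4a1 had 49.3, 43.4 and 43.8 TPM in DTPA libraries, against 747, 681 and 725 TPM in control. The groups did not overlap, and no DTPA library reached 50 TPM. The ratio of means was 0.0634, that is 15.8-fold lower, with a log2 difference of -3.95 (SE 0.0465, adjusted p = 6.97e-14). It ranked 5 from the lowest of the 11917 tested genes by log2 difference. Slc4a1 lies on chromosome 11 from 102348824 to 102366203 (GENCODE M21, build GRCm38), on the minus strand, and has 4891 exonic bases.

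Gypc had 229, 222 and 219 TPM in DTPA libraries, against 589.5, 567 and 583 TPM in control. Its libraries were tightly grouped in both arms and 2.59-fold lower with DTPA (log2 difference -1.37, SE 0.0210, adjusted p = 3.87e-13). Gypc lies on chromosome 18.

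Rhd, the one Rh gene of the mouse, had 0.969, 0.310 and 1.56 TPM in DTPA libraries, against 26.0, 22.5 and 22.4 TPM in control. These levels correspond to 11, 4 and 20 reads with DTPA, against 301, 273 and 250 reads in control. The groups did not overlap. The DTPA libraries were low and, relative to their mean, more widely spread than those of control. The ratio of means was 25.0-fold lower, and the log2 difference was -3.71 (SE 0.191, adjusted p = 8.38e-09), or -4.73 (SE 0.361) by voom on the recovered reads, which adds no 1 TPM. Rhd lies on chromosome 4 from 134864536 to 134896172.

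Rhag had 25.9, 28.9 and 27.5 TPM in DTPA libraries, against 36.2, 33.5 and 34.8 TPM in control. The groups did not overlap (1.27-fold lower with DTPA, log2 difference -0.34, SE 0.0423, adjusted p = 2.33e-05). The Rhd to Rhag ratio within a library was 0.0107 to 0.0569 with DTPA, 0.532 to 0.675 with DFO, 0.878 to 1.00 with SA and 0.645 to 0.719 in control. Rhag lies on chromosome 17 from 40811126 to 40840754.

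Kel had 31.3, 31.7 and 29.1 TPM in DTPA libraries, against 11.9, 9.47 and 12.0 TPM in control, with 617 to 712 reads per library with DTPA. The DTPA libraries lay far above all control libraries, and the ratio of means was 2.76 (log2 difference 1.39, SE 0.0871, adjusted p = 4.70e-08). It ranked 218 from the highest of the tested genes. Kel lies on chromosome 6 from 41686330 to 41704339.

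Xk had 65.8, 67.8 and 67.6 TPM in DTPA libraries, against 51.5, 49.4 and 50.6 TPM in control. It rose 1.33-fold (log2 difference 0.40, SE 0.0307, adjusted p = 2.76e-07), and the groups did not overlap. The Kel to Xk ratio was 0.458 ± 0.0242 with DTPA, 0.195 ± 0.0176 with DFO, 0.228 ± 0.00842 with SA and 0.220 ± 0.0246 in control (SD, n = 3 each). Xk lies on chromosome X from 9272756 to 9313250.

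**Figure D2:**
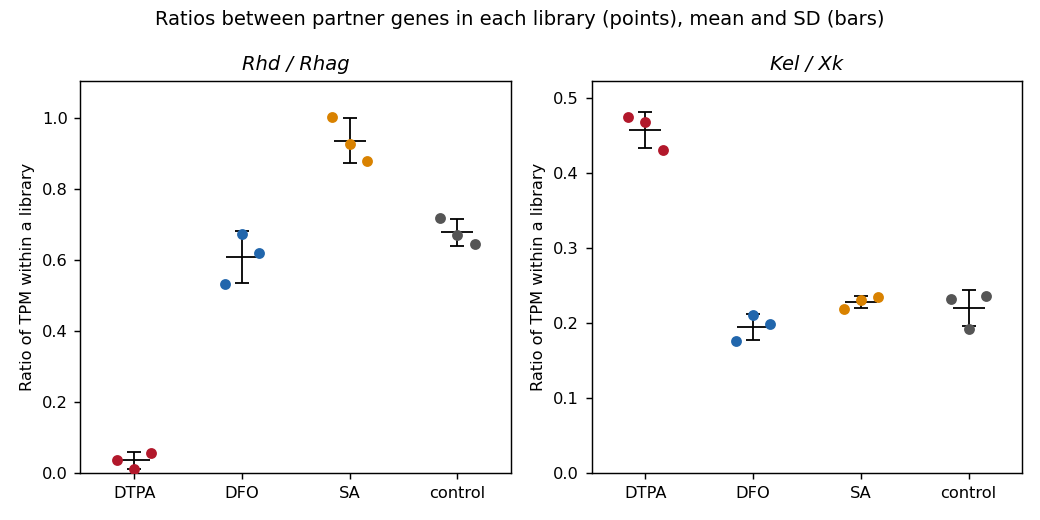
Ratio of TPM of Rhd to Rhag (left) and of Kel to Xk (right) within each library (points), with group mean and SD as black bars, for DTPA, DFO, SA and control from left to right. DTPA libraries had the lowest Rhd to Rhag ratios (0.0107 to 0.0569) and the highest Kel to Xk ratios (0.430 to 0.475).

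Ermap, a member of the immunoglobulin superfamily, had 344, 347 and 344 TPM in DTPA libraries, against 524, 509 and 534 TPM in control. It was 1.51-fold lower with DTPA, with almost no spread among the 3 DTPA libraries (log2 difference -0.60, SE 0.0193, adjusted p = 1.51e-10). Icam4, an adhesion protein that binds integrins, had 191, 187 and 190.5 TPM in DTPA libraries, against 148, 148 and 152 TPM in control. It rose 1.26-fold without overlap (log2 difference 0.34, SE 0.0477, adjusted p = 6.19e-05). All 1110 exonic bases of Icam4 are also covered by an antisense gene model, and whether counting used strand is not given in the sources used here. That model had 0.745 to 1.32 TPM with DTPA and 0.452 to 0.942 TPM in control. Ermap lies on chromosome 4 from 119175457 to 119190011 and Icam4 on chromosome 9 from 21029373 to 21030595. The other members shared no exonic bases with another gene on either strand, Aqp1 (chromosome 6, 55336432 to 55348555) included. Icam4 shared none on its own strand.

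**Figure D3:**
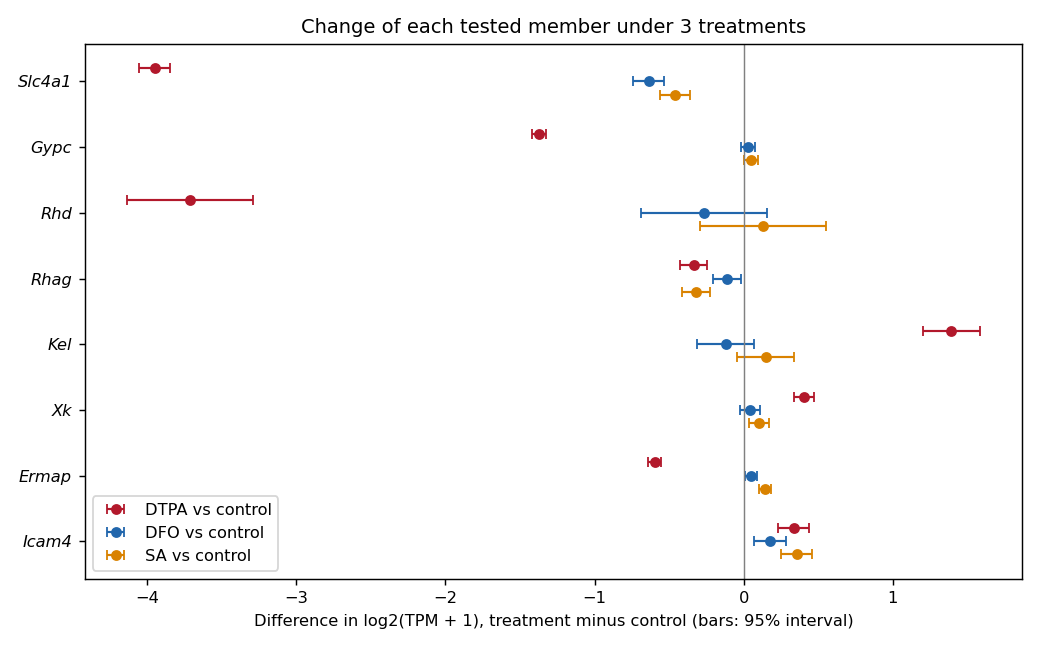
Difference in log2(TPM + 1) from control for each tested member with DTPA, DFO and SA (points), with 95% intervals from limma; positive values are higher in treated cells. With DTPA, Slc4a1 (-3.95) and Rhd (-3.71) lay farthest below 0 and Kel (1.39) farthest above, while all differences with DFO and SA were between -0.64 and 0.36.

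With DFO, 2 of the 8 tested members were called, 1 higher and 1 lower, where 10.7% of all tested genes were (8.39% higher and 2.28% lower). The DFO and control libraries of 5 members did not overlap, as was so for 30.2% of tested genes. Slc4a1 fell to 472, 447 and 464 TPM with DFO, against 747, 681 and 725 TPM in control. The groups did not overlap (1.56-fold lower, log2 difference -0.64, SE 0.0465, adjusted p = 2.44e-05), and Slc4a1 ranked 150 from the lowest. Icam4 had 171, 184 and 155 TPM with DFO, against 148, 148 and 152 TPM in control, a log2 difference of 0.18 (SE 0.0477, adjusted p = 0.0377). The DFO libraries of Icam4 were widely spread, the lowest lying just above control. Its call was lost under both other scalings, where adjusted p was 0.168 and 0.140, and without any one control library, DFO replicate 1 or 2, or SA replicate 1 or 2 (adjusted p between 0.0502 and 0.0990).

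The other 6 were not called with DFO. Rhag had 32.5, 32.3 and 31.6 TPM with DFO, against 36.2, 33.5 and 34.8 TPM in control, without overlap (log2 difference -0.11, 95% interval -0.21 to -0.020, adjusted p = 0.117). Rhag was called lower when libraries were scaled by the median of ratios (-0.17, with an adjusted p of 0.0154) or by the trimmed mean (-0.16, with an adjusted p of 0.0213). Rhd had 17.3, 21.8 and 19.6 TPM with DFO, all below the lowest control library at 22.4 TPM, but the interval of the log2 difference was wide (-0.27, -0.69 to 0.16). That interval also rests on the spread of the DTPA libraries, which had 4 to 20 reads. By voom the difference was -0.33 (SE 0.114, adjusted p = 0.0544), also not called. Kel had 9.30, 11.1 and 9.97 TPM with DFO, overlapping the 9.47 to 12.0 TPM of control (-0.12, -0.31 to 0.071). The intervals of Gypc (-0.019 to 0.074), Xk (-0.026 to 0.11) and Ermap (0.0061 to 0.091) allowed only small differences, and the signs of these 3 turned under median-of-ratios scaling.

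With SA, 5 of the 8 tested members were called, 3 higher and 2 lower, where 22.2% of all tested genes were called (15.4% higher and 6.75% lower). The SA and control libraries of 6 members did not overlap, as was so for 38.5% of tested genes. Slc4a1 had 522, 519.6 and 520.0 TPM with SA, against 747, 681 and 725 TPM in control. All SA libraries were nearly equal and below every control library (1.38-fold lower, log2 difference -0.46, SE 0.0465, adjusted p = 3.98e-05). Rhag had 28.4, 27.1 and 27.5 TPM with SA, against 36.2, 33.5 and 34.8 TPM in control (log2 difference -0.32, SE 0.0423, adjusted p = 0.000275). These 2 genes were lower without overlap.

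Icam4 had 194, 195 and 187 TPM with SA, against 148, 148 and 152 TPM in control (1.28-fold higher, log2 difference 0.36, SE 0.0477, adjusted p = 0.000303). Ermap had 570.2, 580.1 and 579.6 TPM with SA, against 524, 509 and 534 TPM in control (log2 difference 0.14, SE 0.0193, adjusted p = 0.000317). Both rose without overlap of the groups. Xk had 54.1, 52.9 and 55.9 TPM with SA, against 51.5, 49.4 and 50.6 TPM in control (log2 difference 0.10, adjusted p = 0.0345). The call of Xk was lost under both other scalings (adjusted p = 0.228 and 0.114) and without control replicate 2 or 3 or SA replicate 1 or 3 (adjusted p between 0.0720 and 0.123).

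Gypc, Rhd and Kel were not called with SA. Gypc had 596, 604 and 604 TPM with SA, all above the control libraries of 589.5, 567 and 583 TPM (log2 difference 0.052, 95% interval 0.0055 to 0.098, adjusted p = 0.105, and -0.0063 under median-of-ratios scaling). Rhd had 28.5, 25.1 and 24.2 TPM with SA, overlapping the 22.4 to 26.0 TPM of control (0.13, -0.29 to 0.55). Kel had 11.8, 12.2 and 13.1 TPM with SA, overlapping the 9.47 to 12.0 TPM of control (0.15, -0.043 to 0.34).

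The treatments were also compared directly. Between DTPA and DFO all 8 tested members were called, 3 higher and 5 lower, where 65.9% of tested genes were (19.6% higher and 46.4% lower). No member's libraries overlapped, as was so for 69.6% of tested genes. Slc4a1 was 10.1-fold lower with DTPA than with DFO (log2 difference -3.31, adjusted p = 2.42e-13) and Kel was 3.03-fold higher (log2 difference 1.51, adjusted p = 2.32e-08). The call of Rhag (-0.22, adjusted p = 0.000615) was lost under both other scalings, where adjusted p was 0.350 and 0.299.

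Between DTPA and SA, 6 of 8 were called, 2 higher and 4 lower, where 67.1% of tested genes were (20.1% higher and 47% lower). The libraries of 6 members did not overlap, as was so for 70.4% of tested genes. Slc4a1 was 11.4-fold lower (log2 difference -3.49, adjusted p = 1.42e-13) and Rhd 27.4-fold lower with DTPA than with SA (log2 difference -3.84, adjusted p = 6.38e-09), while Kel was 2.48-fold higher (log2 difference 1.24, adjusted p = 1.30e-07). Rhag (log2 difference -0.015, 95% interval -0.11 to 0.078) and Icam4 (-0.020, -0.12 to 0.085) did not differ at the threshold. Under median-of-ratios scaling both were higher with DTPA (0.17 each, adjusted p = 0.00132 and 0.0106), and trimmed-mean scaling gave 0.16 for each.

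Between DFO and SA, 4 of 8 were called, 1 higher and 3 lower, where 13.5% of tested genes were (7.22% higher and 6.3% lower). The libraries of 6 members did not overlap, as was so for 31.9% of tested genes. Rhag was higher with DFO than with SA (log2 difference 0.21, SE 0.0423, adjusted p = 0.00790), without overlap. Slc4a1 (-0.17, adjusted p = 0.0301), Ermap (-0.095, adjusted p = 0.00801) and Icam4 (-0.18, adjusted p = 0.0309) were lower with DFO than with SA. Slc4a1 lost its call without DFO replicate 2 or 3 or any one SA library (adjusted p between 0.0693 and 0.102), and Icam4 without DFO replicate 1 or 3 or SA replicate 1 or 2 (adjusted p between 0.0583 and 0.0927). Icam4 also lost its call in only the 6 libraries compared (adjusted p = 0.114). With no filter both Slc4a1 and Icam4 lost theirs (adjusted p = 0.0703 and 0.0701). Rhd (-0.39, interval -0.82 to 0.028) and Kel (-0.27, interval -0.46 to -0.079, adjusted p = 0.0655) did not pass, though their libraries did not overlap. Voom on the recovered reads called both (adjusted p = 0.00929 and 0.0431). Limma also called Rhd in only the 6 libraries compared (adjusted p = 0.0467), without DTPA replicate 2 (0.0488) and with a pseudocount of 5 (0.0318). It called Kel without control replicate 2 (0.0209).

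Genes that work beside the members were followed as 5 lists, whose counts with DTPA stand beside a background of 42.1% of all tested genes lower and 23.5% higher. In the list of band 3 and Rh complex partners and membrane skeleton proteins, 12 of 15 fell and 3 rose with DTPA, with a median log2 difference of -0.61 beside -0.11 for all tested genes. Under both other scalings 11 fell and 3 rose, where all tested genes gave 3842 higher and 3858 lower, or 3881 and 3823. Tmod1, which caps actin filaments, fell to 0.953 ± 0.146 TPM in DTPA libraries, against 11.1 ± 0.965 TPM in control (log2 difference -2.63, adjusted p = 3.16e-10). Dmtn, the actin-bundling protein dematin, was 5.38-fold lower (9.92 ± 0.919 TPM with DTPA and 53.3 ± 1.18 TPM in control). The rises were led by Car1, carbonic anhydrase 1, at 546 ± 14.2 TPM with DTPA and 68.4 ± 3.23 TPM in control, and by the adducin gene Add2, at 292 ± 3.80 TPM with DTPA and 181 ± 1.77 TPM in control (SD, n = 3 each).

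Cd47, an Rh complex partner that marks a cell as self, was the remaining rise in that list, at 268 ± 2.44 TPM with DTPA and 224 ± 3.89 TPM in control (log2 difference 0.26, adjusted p = 1.51e-06). Ank1, Epb42 and Car2, like Cd47 chosen after their values were seen, encode the ankyrin that holds band 3, the band 3-bound protein 4.2 and carbonic anhydrase 2. Ank1 averaged 159 ± 4.19 TPM with DTPA and 243 ± 6.09 TPM in control. The Slc4a1 to Ank1 ratio was 0.286 ± 0.0193 with DTPA, 2.03 ± 0.00423 with DFO, 2.16 ± 0.0158 with SA and 2.95 ± 0.0708 in control. Epb42 averaged 2.94 ± 0.490 TPM with DTPA and 6.66 ± 0.127 TPM in control. Car2, a zinc enzyme, averaged 3097 ± 71.7 TPM with DTPA and 5007.5 ± 80.3 TPM in control. Its paralog Car1, also a zinc enzyme, moved the other way.

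The list of other blood group and red cell surface genes split in direction with DTPA. Of 17 tested, 9 rose, 7 fell and 1 did not pass, with a median of 0.094. Under both other scalings 9 rose and 5 fell. Cd44, which carries the Indian blood group, had 8.80 ± 0.277 TPM with DTPA and 2.83 ± 0.213 TPM in control (adjusted p = 4.76e-08). Cd151, a tetraspanin that carries the Raph group, had 44.7 ± 2.87 TPM with DTPA and 18.6 ± 0.828 TPM in control. Slc29a1, the nucleoside transporter of the Augustine group, was 2.54-fold lower (15.0 ± 0.419 TPM with DTPA and 38.2 ± 0.476 TPM in control). Piezo1, a mechanically gated channel, was 1.85-fold lower (30.7 ± 0.667 TPM with DTPA and 56.9 ± 0.846 TPM in control). Art4, the Dombrock gene, named for its change with DFO, had 282 ± 3.52 TPM with DTPA, 191 ± 1.40 with DFO, 156 ± 4.99 with SA and 150.3 ± 2.66 in control.

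Among relatives and partners of Kell and XK, 3 of 5 tested rose with DTPA, 1 fell and 1 did not pass, with a median of 0.65. Under both other scalings 4 rose and 0 fell. Ece1, which encodes an endothelin-converting enzyme of the same zinc peptidase family as Kell, had 5.05 ± 0.449 TPM with DTPA and 0.980 ± 0.171 TPM in control (log2 difference 1.61, adjusted p = 1.33e-07), and the XK relative Xkr6 had 8.33 ± 0.710 TPM with DTPA and 4.95 ± 0.250 TPM in control. Vps13a, the lipid transfer protein that binds XK, fell by 0.19 on the log2 scale, a call lost under both other scalings (adjusted p = 0.351 and 0.384). Of 13 red cell transporters tested, 4 rose and 6 fell. Both other scalings turned this split to 7 higher and 5 lower. Among the rises was Aqp9, at 2.43 ± 0.274 TPM with DTPA and 0.880 ± 0.207 TPM in control (0.795 with DFO and 0.557 with SA). Aqp9 met the filter of 1 TPM in 3 libraries only through DTPA, so its rise was favoured by the filter. Kcnn4, the Gardos potassium channel, had 1.80 ± 0.360 TPM with DTPA and 12.5 ± 0.298 TPM in control, and the lactate carrier gene Slc16a1 had 45.5 ± 1.37 TPM with DTPA and 122.5 ± 2.14 TPM in control. Slc4a2, an anion exchanger related to band 3, rose 1.35-fold to 18.8 ± 0.619 TPM in DTPA libraries, against 13.9 ± 0.642 TPM in control.

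Of 13 erythroid transcription factor genes, 6 rose, 5 fell and 2 did not pass with DTPA (all tested genes: 23.5% higher and 42.1% lower). Scaling by the median of ratios gave 7 higher and 5 lower, and by the trimmed mean 8 and 5. Gata1 reads, which cannot separate the transgene from the disrupted gene, averaged 1058 ± 25.5 TPM with DTPA and 2501 ± 68.6 TPM in control. E2f2 was 5.78-fold lower, Gfi1b 2.72-fold higher and Ldb1 1.63-fold higher. Klf1, chosen after its values were seen, averaged 689 ± 16.2 TPM with DTPA and 661 ± 2.08 TPM in control and did not pass (adjusted p = 0.0650), but did under both other scalings (0.19 and 0.20, higher).

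**Figure D4:**
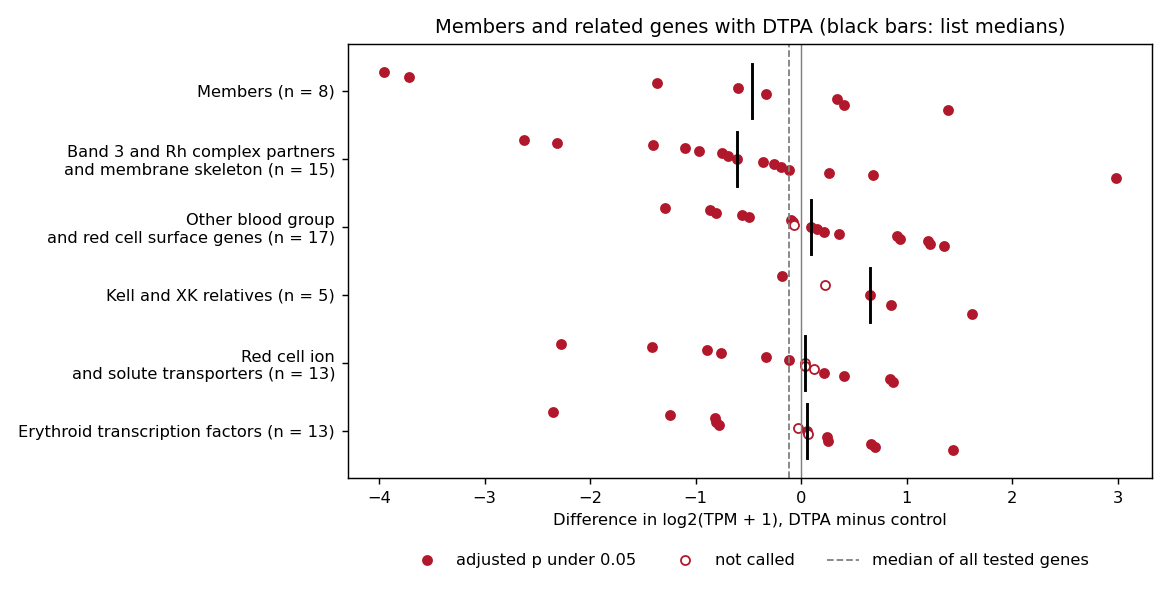
Difference in log2(TPM + 1) between DTPA and control for the 8 tested members and the tested genes of 5 related lists (points, filled where adjusted p was under 0.05), with list medians as black bars and the median of all tested genes (-0.11) as a dashed line. The members spread from -3.95 to 1.39, and genes on both sides of 0 occurred in every list.

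With DFO and SA fewer genes of these lists were called, as was so for all tested genes (8.39% higher and 2.28% lower with DFO, and 15.4% higher and 6.75% lower with SA). The complex and skeleton list had 6 lower, 1 higher and 8 not called with each agent (by voom 11 were lower with DFO and 10 with SA). Voom scaled libraries by the trimmed mean, and the share of all genes that it called was not counted. The voom counts given here thus have no background. Tmod1 fell with both, to 6.64 ± 0.435 TPM with DFO (log2 difference -0.66) and 7.04 ± 0.719 TPM with SA (log2 difference -0.59), against 11.1 ± 0.965 TPM in control. The other surface genes had 2 higher and 2 lower with DFO, including Art4 (log2 difference 0.35) and Piezo1 (-0.14), and 2 higher and 3 lower with SA, including Slc29a1 (0.44) and Abcg2 (-0.25). With SA, scaling by the median of ratios made this split 2 to 6, and the trimmed mean 2 to 4. Of the 5 relatives of Kell and XK, limma called 0 with DFO and 0 with SA. With DFO there were 0 also at an unadjusted p under 0.05 and by voom. With SA 1 was higher and 0 lower at an unadjusted p under 0.05, while by voom 0 were higher and 1 lower. Transporters had 2 higher and 0 lower with DFO by limma, where 3 were higher and 2 lower at an unadjusted p under 0.05, and 0 higher and 2 lower by voom. With SA 3 transporters were higher and 0 lower, where 6 and 0 passed unadjusted and 1 and 0 by voom. The share of all tested genes at an unadjusted p under 0.05 was not counted either, so the unadjusted counts have no background. The call of Stom with DFO was lost under both other scalings, while that of Atp2b4 with SA (0.16) was kept. The factor genes had 2 higher and 4 lower with DFO, led by E2f2 (-0.44), and 6 higher and 2 lower with SA, led by Gata2 (0.42) and Bcl11a (0.37). Both other scalings gave 0 higher and 5 lower factor genes with DFO and 6 higher and 5 lower with SA. Over all lists the 19 calls with DFO split into 7 higher and 12 lower, against 2 and 18 under median-of-ratios scaling. The 23 calls with SA split into 12 and 11, against 10 and 19. For all tested genes, calls with DFO went from 1000 higher and 272 lower to 423 and 646 under the same scaling. Trimmed-mean scaling gave 471 and 541. Calls with SA went from 1838 and 804 to 1124 and 1624, and to 1281 and 1407 by the trimmed mean.

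For each tested member the genes with the most similar changes were found by the root-mean-square difference of log2 differences over the 3 treatments. The candidates were 7956 tested genes with at least 5 TPM in control, with predicted gene models (Gm numbers or Rik names) left out. All 3 comparisons share the control libraries, so this is a description of likeness only. Nearest to Slc4a1 was Rrm2, at 0.14, with 6.51 TPM on average with DTPA, 75.3 with DFO, 76.9 with SA and 103.6 in control, then Mcm5 at 0.23. Nearest to Rhd were Ccnb2 (0.093) and Bub1b (0.11). Rhd averaged 0.947 TPM with DTPA and 23.7 TPM in control, against 9.25 and 127.3 TPM for Ccnb2. The added 1 TPM makes the change of Rhd come out too small, so its likeness depends on that scale. Gypc was closest to Paics (0.021) and Helq (0.029), Kel to Ggta1 (0.11) and Cox7a1 (0.11), Rhag to Whamm (0.021) and Vcp (0.023), Xk to Wipi2 and Ddi2 (0.014 each), Ermap to Cirbp (0.011) and Tars (0.015), and Icam4 to Mrm1 (0.021) and Pus3 (0.030). No member was among the 2 nearest genes of another member.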

How the data were processed

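Stranded mRNA libraries were made from column-purified RNA, per the labels' protocols. The submitters' processing notes name Trimmomatic 0.33, FastQC, HISAT2 2.1.0, featureCounts, edgeR and build mm10, all run by the authors; which settings and which annotation they used is not given in the sources used here. Each library has 1 deposited table of 55487 rows in TPM, as scaled by the authors. Of 114 repeated symbols the copy with the highest mean was kept. TPM times exon length (GENCODE M21) fell on whole multiples of a step (98.7% to 98.9% of values up to 200 reads within 0.1 read). This gave reads and, over symbols with 1 annotated gene, their sum per library. Replicates differed beyond sampling noise (chi-square per degree of freedom 2.00 to 5.30).

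A gene was tested if 3 or more libraries had 1 TPM or more (11917 genes). Values of log2(TPM + 1) from all 12 libraries were fitted with limma 3.58.1 in R 4.3.3 (1 mean per group, trend), with Benjamini-Hochberg adjustment over tested genes and a threshold of 0.05. The fit was tested on simulated data. Promoters came from RefSeq. Tables were handled with Python 3.11.15 and pandas 2.3.3.

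The members and lists were chosen with earlier results of these data known. Genes named from a list were the 2 largest called rises and falls with DTPA, and up to 2 called genes with DFO and SA, with at least 5 TPM in either group. Other names were chosen after their values were seen. Some genes of these lists are counted but not reported by name here. The results were recomputed with pseudocounts of 0.1 and 5, with a filter of 5 TPM or none, after scaling by the median of ratios or by the trimmed mean, with robust fitting, in only the 6 libraries compared, with a replicate block, with a log2 fold threshold of 1, by voom on recovered reads, and without each library in turn.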

Additional observations from a re-analysis of the deposited data

Results flagged for a closer look

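Ermap moved in opposite directions with 2 agents and passed the test against control with each. It was lower with DTPA (log2 difference from control -0.60) and higher with SA (0.14), and the direct comparison of DTPA with SA gave a log2 difference of -0.74 (95% interval -0.78 to -0.70, adjusted p = 2.41e-11 by limma), lower in 3 of 3 DTPA libraries than in any SA library. What separates the agents was not tested.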

How the results depend on the processing

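Of the values of single members under alternatives other than leaving out a library, 441 kept their direction and side of the threshold, 17 lost a call, 7 gained one and 15 changed sign, 6 of which also gained a call (Rhag and Icam4 for DTPA against SA). With a library left out these were 552, 20, 2 and 2. All 8 calls with DTPA against control held in direction and call in every alternative tried, except that a log2 threshold of 1 left 4. That threshold left 0 with DFO against control, 0 with SA against control, 4 for DTPA against DFO and 0 for DFO against SA. The share of all tested genes that pass it was not counted, so these counts have no background. With DFO against control, 1 member was called with no filter, 1 in only the 6 libraries compared and 1 with the replicate block, and with no filter DFO against SA gave 2. The signs that turned were those of Gypc with DFO (-0.028 by median of ratios, -0.019 by trimmed mean, -0.022 by voom), Xk with DFO (-0.013, -0.0037 and -0.0086 in the same order), Ermap with DFO (-0.0068 by median of ratios and -0.00068 by voom), Gypc with SA (-0.0063 by median of ratios), Rhag for DTPA against SA (0.17, 0.16 and 0.16, and between -0.052 and 0.024 with 1 library left out, positive without DTPA replicate 1 and, at 0.0029, without SA replicate 1) and Icam4 for DTPA against SA (0.17, 0.16 and 0.15). Leaving out 1 library gave 8 members with DTPA against control each time, 1 to 2 with DFO, 4 to 5 with SA, 8 for DTPA against DFO, 6 for DTPA against SA and 2 to 5 for DFO against SA. Of the 63 related genes tested it gave 54 to 57 calls with DTPA, 13 to 19 with DFO and 21 to 24 with SA. The share of all tested genes called was not counted with a library left out, with no filter, in only the 6 libraries or with the block. The counts of members and related genes under these settings thus have no background. The deviations of same-numbered libraries of different groups from their group means had correlations between -0.043 and 0.054 across genes. These values gave no sign that the numbers pair the libraries. They cannot exclude it, since a deviation shared by few genes would be diluted over all tested genes. With the replicate block Icam4 with DFO (adjusted p = 0.0505) and Xk with SA (0.0619) lost their calls. The cause of these shifts was not tested. Counting limits Rhd with DTPA, at 4 to 20 reads.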

Other observations

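Several blood group genes of other families were listed at 0 in all 12 libraries. These were 5 of the 28 other surface genes found by symbol: Abo, Fut1, Gcnt2 and B3galnt1, which encode glycosyltransferases of carbohydrate antigens, and Emp3. Of the 8 relatives of Kell and XK, 3 were listed at 0 (Mme, Ecel1 and Xkr4), and so was Rhbg among the transporters, a relative of Rhag found in other tissues. Cd99 was not found under that symbol.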
